A study of Mus musculus with 1 sample.

Results

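The genes described here are 10 members of the piRNA pathway, *Piwil2*, *Piwil4*, *Tdrd1*, *Tdrd5*, *Tdrd9*, *Mael*, *Mov10l1*, *Asz1*, *Pld6* and *Stk31*, taken by symbol from the 22631 features of a single-cell library of fetal mouse testes. All 10 were in the matrix. The study asked what the loss of the nuclear receptor NR5A1 from Sertoli cells (SCs) after sex determination does to the testis. Only its control library was analysed here, which was made from 12 pooled testes of *Nr5a1* L2/L2 fetuses without the AMH-Cre transgene, on a mixed C57BL/6 and 129/SvPass background, and is labelled WT. The label gives embryonic day 14.5 (E14.5), and the study's text gives E13.5 and E14.5. The controls therefore carry the floxed *Nr5a1* alleles on both chromosomes but not the Cre that deletes them, and neither age nor animal can be told apart within the pool. There was 1 library and so no replicate, and no test was made. All intervals are exact at 95%, Poisson for levels and Clopper-Pearson for shares of cells, and cover counting error only.

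The piRNA pathway silences transposons in the germ line. Long precursor transcripts are cut on the surface of mitochondria into PIWI-interacting RNAs (piRNAs), which guide PIWI proteins to transposon RNA in the cytoplasm and, in fetal male germ cells (GCs), to transposon loci in the nucleus, where DNA methylation is then laid down. In the mouse this happens in prospermatogonia, the GCs that stop dividing in the fetal testis. Most proteins of the pathway work in cytoplasmic granules held together by Tudor domains, which bind methylated arginines of PIWI proteins.

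The counts are unique molecular indices (UMIs), each standing for 1 captured mRNA molecule read at its 3′ end, so they do not grow with transcript length. The matrix held 72595083 UMIs in 5421 barcodes, of which 3819 were kept as cells, with a median of 12082 UMIs. Clustering, made without the 10 members and without 23 other pathway genes among the variable genes, gave a cluster of 247 cells named germ-like from its markers (6.47% of kept cells, 5.71 to 7.29%). Of 11 GC markers, 9 were found in at least 25% of these cells, and the other two, *Rhox6* and *Rhox9*, were at 3.636 and 4.999 counts per 1000000 UMIs (CPM). The summed level of 10 SC markers was 87.9 CPM in germ-like cells against 13070 CPM in SC-like cells. Germ-like cells were the deepest class with a median of 36251 UMIs per cell, against 14291 in the 866 SC-like cells, 9289 in the 1352 interstitial-like cells and 11845 over all 3421 somatic cells with a named class. Shares of cells with a UMI were therefore also taken after thinning every cell to the same number of UMIs.

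Promoter sequence of members was taken from RefSeq (GRCm38.p6, the build of the deposited files). The table held 9 of the 10 members, all but *Piwil2*. The letters CACGTG, an E-box that reads the same on both strands, were in the promoter of 6 of these 9 members, against 8.09% of all 27025 genes in the table, 11.4% of the 11295 genes with enough UMIs to be compared between classes, and 12.9% of 865 other genes at least 4-fold higher in germ-like than in somatic cells. Promoters there run from 250 bases before to 50 bases after the transcript start. Shown here are the 250 bases before the most upstream start of 4 of the 6 members, those with a match nearest to the start or with more than 1 match, 5′ to 3′ on the gene's strand, with CACGTG in capitals.
Tdrd1: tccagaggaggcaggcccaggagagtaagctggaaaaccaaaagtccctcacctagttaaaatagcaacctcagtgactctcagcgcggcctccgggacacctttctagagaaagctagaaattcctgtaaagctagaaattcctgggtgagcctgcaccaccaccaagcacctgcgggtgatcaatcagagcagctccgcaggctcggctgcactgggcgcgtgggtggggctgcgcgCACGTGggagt
Tdrd9: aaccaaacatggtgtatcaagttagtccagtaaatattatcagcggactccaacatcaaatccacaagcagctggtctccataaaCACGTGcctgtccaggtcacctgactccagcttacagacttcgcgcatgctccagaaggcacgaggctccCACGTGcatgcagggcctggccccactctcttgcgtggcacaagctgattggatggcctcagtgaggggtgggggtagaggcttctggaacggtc
Pld6: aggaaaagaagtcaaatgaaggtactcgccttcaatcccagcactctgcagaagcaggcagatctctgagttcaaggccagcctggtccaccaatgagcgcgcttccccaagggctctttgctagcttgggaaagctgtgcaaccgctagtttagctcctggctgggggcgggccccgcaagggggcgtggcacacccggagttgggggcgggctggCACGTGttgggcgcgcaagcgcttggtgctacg
Stk31: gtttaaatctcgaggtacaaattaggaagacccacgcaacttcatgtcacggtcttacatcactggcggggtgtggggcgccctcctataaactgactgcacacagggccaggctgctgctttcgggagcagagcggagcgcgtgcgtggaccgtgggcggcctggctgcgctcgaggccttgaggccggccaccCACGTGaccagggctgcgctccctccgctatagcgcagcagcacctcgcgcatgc

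The *Tdrd1* stretch is chr19:56825959-56826208 (plus strand), and its match began 11 bases before the start. The *Tdrd9* stretch is chr12:111971309-111971558 (plus strand), with matches 165 and 95 bases before the start. The *Pld6* stretch is chr11:59787658-59787907 (minus strand), with a match 33 bases before the start, and the *Stk31* stretch is chr6:49395289-49395538 (plus strand), with a match 55 bases before it. In *Mael* and *Mov10l1* the match lay farther out, 223 and 246 bases before the start. *Piwil4*, *Tdrd5* and *Asz1* had none in this window. Of 15 other pathway genes in the table, 5 had the match, *Ddx4*, *Piwil1*, *Fkbp6*, *Dnmt3l* and *Wdr77*. Of the other letters searched on both strands, GGGCGG was in 5 of the 9 members, against 38.2% of all genes, 67.1% of the genes compared between classes and 56.2% of the other germ-high genes. CCAAT was in 4 of the 9, against 41.1%, 43.3% and 45.1%. The E2F-type letters TTCCCGC were in 1 member, *Tdrd5*, against 5.29%, 9.56% and 9.48%. With the window richest in CG pairs taken where a member had more than 1, member promoters held a median of 24 CG pairs (10 to 48). The median was 8 over all genes and 23 over the 15 other pathway genes. The median was not taken over the genes compared between classes or the other germ-high genes, so whether members differ from those is not known. A match of letters is a description of the window, and binding was not measured here. Whether a match goes with a member's level or with its variation over cells was not tested.

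Of the 10 members, 9 were at least 4-fold higher in germ-like than in somatic cells, *Pld6* being the exception at 3.75-fold (2.58 to 5.42). With looser outlier limits, with scaling that left out mitochondrial and ribosomal protein genes, or with SC-like cells left out, *Pld6* also passed and the count was 10. By the same rule, 7.88% of 14389 genes were called where the count of members was 9. The members together made up 1661 CPM in germ-like cells (1635 to 1689) and 11.8 CPM in somatic cells (10.8 to 12.8). The median ratio of the members was 75.7, whereas the median over all genes compared was 0.740. Against SC-like cells alone, 9 of 10 were again at least 4-fold higher, where 9.93% of genes were.

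**Figure D1:**
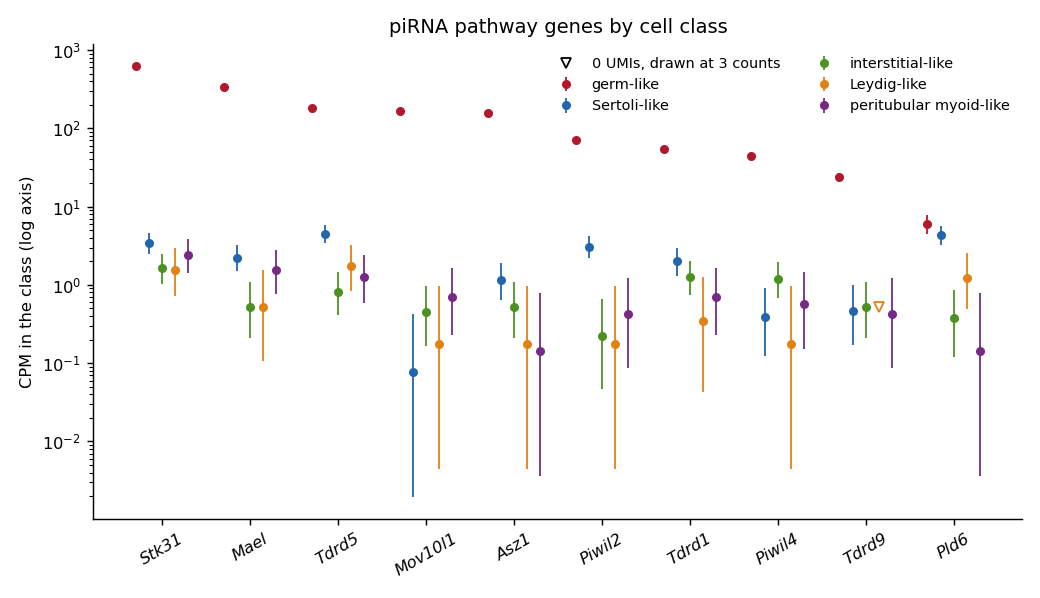
Level of each member (CPM, log axis) in germ-like, SC-like (marked Sertoli-like), interstitial-like, Leydig-like and peritubular myoid-like cells, with exact Poisson 95% intervals. Germ-like levels run from 617 CPM for *Stk31* to 6.02 CPM for *Pld6*, and only for *Pld6* does the SC-like interval meet the germ-like one.

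Of the PIWI genes themselves, *Piwil2* ranked 1989 and *Piwil4* 3038 by level among 15493 genes with a germ-like UMI. *Piwil2* (ENSMUSG00000033644, chr14:70372477-70429383) encodes the cytoplasmic PIWI protein of fetal and postnatal male GCs, which carries piRNAs and cuts transposon RNA. Its UMIs in germ-like cells ranged from 0 to 11 per cell with a median of 2, and its level was 71.3 CPM (65.9 to 77.2), with a UMI in 83.4% of cells. *Piwil4* (ENSMUSG00000036912, chr9:14696230-14740733) encodes the PIWI protein that enters the nucleus of prospermatogonia and is needed there for transposon methylation. It had 0 to 12 UMIs per germ-like cell with a median of 1, a level of 44.8 CPM (40.4 to 49.4) and a UMI in 56.3% of cells. The third family member, *Piwil1*, known for its role in later spermatogenic cells, was at 5.79 CPM (4.31 to 7.62) with a UMI in 18.2% of germ-like cells, and at 0 UMIs in somatic cells, so that it was at least 86.6-fold higher in germ-like cells against a limit of 3 counts over all somatic cells. By molecules captured, *Piwil2* lay above *Piwil4* and both lay above *Piwil1*, with no overlap of the counting intervals.

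The 4 Tudor domain members spanned a wide range. *Stk31* (ENSMUSG00000023403, chr6:49395604-49469501), whose protein joins a Tudor domain to a kinase-like domain, was the highest member, with 0 to 53 UMIs per cell, a median of 20, and a level of 617 CPM (600 to 633). It was found in 246 of the 247 germ-like cells and ranked 187 among 15493 genes with a germ-like UMI. *Tdrd5* (ENSMUSG00000060985, chr1:156255296-156303664), needed for the granules in which piRNA factors gather, had 0 to 21 UMIs per cell, a median of 6 and a level of 183 CPM (174 to 192). *Tdrd1* (ENSMUSG00000025081, chr19:56826209-56870012), the scaffold that binds PIWIL2 beside mitochondria, had 0 to 9 UMIs per cell, a median of 1 and a level of 54.8 CPM (49.98 to 59.88). *Tdrd9* (ENSMUSG00000054003, chr12:111971559-112068854), a helicase found with PIWIL4, had 0 to 9 UMIs per cell, a median of 0 and a level of 23.6 CPM (20.5 to 27.1). *Tdrd9* thus stood lowest of the 4, and a UMI of it was seen in only 37.7% of germ-like cells. The gene *Rd3l* lies on the other strand within the *Tdrd9* locus.

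Among the remaining members, *Mael* (ENSMUSG00000040629, chr1:166201201-166238747), a granule protein that also goes to the nucleus, had 0 to 52 UMIs per germ-like cell, a median of 9 and a level of 340 CPM (328 to 352). *Mov10l1* (ENSMUSG00000015365, chr15:88982909-89055152), the RNA helicase that binds piRNA precursors, had 0 to 23 UMIs per cell, a median of 5 and a level of 166 CPM (158 to 175). *Asz1* (ENSMUSG00000010796, chr6:18050964-18109061), which anchors the machinery to the outer mitochondrial membrane, had 0 to 18 UMIs per cell, a median of 4 and a level of 155 CPM (147 to 164). The intervals of *Mov10l1* and *Asz1* overlapped, as did those of *Tdrd5* and *Mov10l1*, while every other neighbour in the order of levels was separated by more than counting error. *Pld6* (ENSMUSG00000043648, chr11:59783897-59787645), the mitochondrial protein held to cut piRNA precursors, was the lowest member, with 0 to 3 UMIs per cell and a level of 6.02 CPM (4.51 to 7.88), on 53 UMIs in all. It ranked 8527 among the genes with a germ-like UMI.

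The wider pathway list held 23 genes, of which 21 had enough UMIs to be compared. Of these, 18 were at least 4-fold higher in germ-like than in somatic cells, where 7.88% of 14389 genes were. Their median ratio over the genes compared was 64.4. *Ddx4*, the Vasa helicase, was at 398 CPM in germ-like cells (385 to 411), *Fkbp6*, a co-chaperone of the pathway, at 398 CPM (385 to 411), and *Tex19.1* at 247 CPM (237 to 258). Among the genes that act with PIWIL4 in the nucleus, *Tex15* was at 214 CPM (204 to 224), *Morc1* at 70.8 CPM (65.3 to 76.6), *Dnmt3l* at 17.5 CPM (14.8 to 20.5), *Spocd1* at 6.93 CPM (5.30 to 8.90) and *Dnmt3c* at 0.227 CPM, on 2 UMIs. *Tdrd6*, a Tudor gene of later spermatogenic cells, had 3 UMIs. The genes compared that did not reach 4-fold were *Prmt5* and *Wdr77*, the methyltransferase pair that modifies PIWI proteins and many others, at 2.51-fold (2.27 to 2.77) and 2.29-fold (2.09 to 2.50), and *Mybl1*. *Mybl1*, the transcription factor of the pachytene piRNA program, was at 39.4 CPM in SC-like cells against 11.5 CPM in germ-like cells, where the germ-like level was 0.291 of the SC-like level (0.233 to 0.361).

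Detection was compared at equal depth by thinning each cell to 5000 UMIs, which left out 1 germ-like and 17 SC-like cells. *Stk31* was then found in 92.7% of 246 germ-like cells (88.7 to 95.6%) and in 1.77% of 849 SC-like cells (0.992 to 2.90%). *Mael* was in 69.9% of germ-like and 1.41% of SC-like cells, *Piwil2* in 32.1% and 2.36%, and *Piwil4* in 20.3% and 0 of 849, where a limit of 3 counts gives a share of up to 0.353% of cells with a UMI at this depth and the exact interval ends at 0.434%. Before thinning, *Piwil2* was seen in 83.4% of germ-like and 4.04% of SC-like cells. *Pld6* was alone in being found about as often in both classes, in 2.85% of germ-like cells (1.15 to 5.77%) and 2.59% of SC-like cells (1.63 to 3.90%). At least 3 members were found in 77.2% of germ-like cells, in 0 of the 849 SC-like cells and in 1 of 3312 somatic cells. Each class was thinned in a draw of its own, and in that of the 518 peritubular myoid-like cells, which are part of the somatic cells, 2 held at least 3 members.

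**Figure D2:**
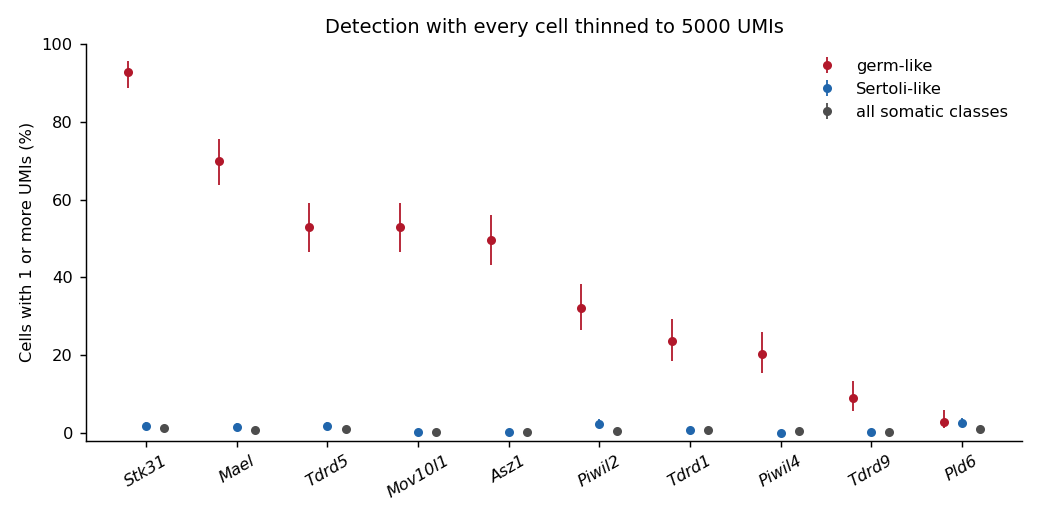
Share of cells with 1 or more UMIs of each member after thinning every cell to 5000 UMIs, in germ-like, SC-like and all named somatic cells, with exact binomial 95% intervals. The germ-like share falls from 92.7% for *Stk31* to 2.85% for *Pld6*, where it meets the SC-like share.

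In somatic cells the members were low but not at 1 common ratio to their germ-like level. Over SC-like cells, the 9 members with at least 100 germ-like UMIs were at 0.0463 to 4.32% of their germ-like level (median 0.861%), whereas 9 GC markers were at 0.413 to 2.74% (median 1.63%). The highest was *Piwil2*, at 3.08 CPM (2.202 to 4.198) on 40 UMIs, which was 4.32% of its germ-like level (3.06 to 5.95%). *Mov10l1* was the lowest, with 1 UMI in 866 cells, or 0.0463% of its germ-like level (0.00117 to 0.259%). *Stk31*, the most abundant member in germ-like cells, was at 3.39 CPM and 0.550% (0.399 to 0.739%). The *Piwil2* and *Mov10l1* intervals thus lay apart, on either side of those of *Stk31*. In interstitial-like cells *Piwil2* was at 0.314% of its germ-like level (0.0645 to 0.921%), on 3 UMIs, and *Piwil4* at 2.67% (1.51 to 4.39%), on 16, so that the order of these genes was not that of SC-like cells. Of the 8 members with enough UMIs, 4 were at least 4-fold higher in SC-like than in interstitial-like cells, as were 9.44% of all genes compared.

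*Pld6* was found in SC-like cells at nearly its germ-like level. It was at 4.32 CPM in SC-like cells, on 56 UMIs, and at 6.02 CPM in germ-like cells, on 53, a ratio of germ-like to SC-like level of 1.40 (0.940 to 2.07). In interstitial-like cells it was at 0.373 CPM, on 5 UMIs. Among the 448 SC-like cells without a UMI of any GC marker, *Pld6* was at 3.75 CPM (2.40 to 5.58), *Tdrd5* at 3.13 CPM (1.91 to 4.83), *Piwil2* at 2.66 CPM (1.55 to 4.25) and *Stk31* at 1.41 CPM (0.643 to 2.67). In the other 418 SC-like cells *Pld6* was at 4.86 CPM (3.33 to 6.87) and *Tdrd5* at 5.78 CPM (4.09 to 7.93). *Piwil2* was at 3.50 CPM (2.22 to 5.25) there and *Stk31* at 5.32 CPM (3.71 to 7.40). *Mael* was at 1.25 CPM (0.540 to 2.46) without a GC marker UMI and at 3.19 CPM (1.98 to 4.88) with 1 or more. *Stk31* was therefore higher in SC-like cells that held a GC marker UMI, with no overlap of the intervals. *Tdrd5*, *Mael*, *Pld6*, *Piwil2*, *Tdrd1* and *Piwil4* were also higher there, but their intervals overlapped, and *Asz1*, *Tdrd9* and *Mov10l1* were not higher. *Tdrd1* was at 1.56 CPM without a GC marker UMI and 2.43 CPM with 1 or more. *Piwil4* was at 0.313 and 0.456 CPM, on 2 and 3 UMIs. The median depth was 14053 UMIs in SC-like cells without a GC marker UMI and 14784 in the others. The shares of all genes that were higher, or separated, over this split were not taken, so how unusual these differences are cannot be told. The part of free RNA and of mixed droplets in these somatic levels was not tested. The split cannot measure it, since it picks the cells by their GC marker UMIs. The barcodes with fewer than 200 genes held 9 member UMIs in all, or 6.38 CPM (2.92 to 12.1), and hemoglobin genes made up 46.8% of their UMIs.

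How many members were seen in a single germ-like cell depended on depth. As read, a germ-like cell held a UMI of 8 members in the median, from 1 to 10, and 18 of 247 cells held all 10. The 2 cells with only 1 member had 6232 and 3554 UMIs in all and 7 and 6 of the GC markers. Thinned to 10000 UMIs, which left 238 cells, the median was 5 members, the quartiles were 4 and 7, and the extremes were 2 and 9. Of the 3421 somatic cells as read, 3004 held none, 366 held 1, and none held more than 4.

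**Figure D3:**
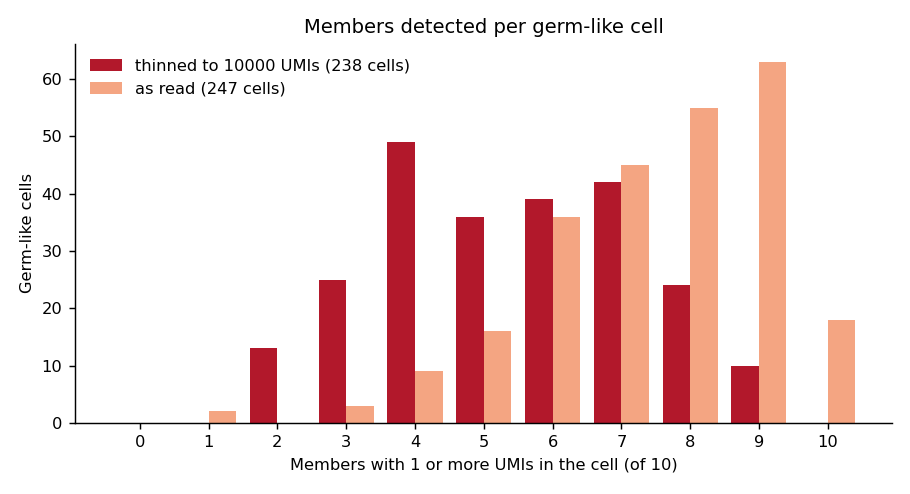
Number of germ-like cells by how many of the 10 members had a UMI in the cell, as read (247 cells) and after thinning to 10000 UMIs (238 cells). The median is 8 members as read and 5 after thinning.

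Over germ-like cells, most pairs of members had a correlation above 0, of modest size. At 10000 UMIs per cell, the Spearman correlation was above 0 in 44 of the 45 pairs, with a median of 0.23 and a highest value of 0.50 for *Mael* with *Stk31*. The share of pairs above 0 among other genes of like level was not taken, so how unusual this count is cannot be told. The share of cells with both members of a pair differed from the product of their shares by -0.297 to 6.06 points. Against the summed members, the median correlation of 4172 other genes was 0.01, which is not a background for pairs. At 20000 UMIs per cell (229 cells) the 45 values ran from 0.03 for *Tdrd9* with *Pld6* to 0.62 for *Mael* with *Stk31*, with a median of 0.35. *Piwil4* went most closely with *Mael*, at 0.55, and *Asz1*, at 0.52. Against the sum of the other 9 members, *Mael* had the highest correlation at 20000 UMIs, 0.74, then *Stk31*, 0.73, and *Pld6*, the member with the fewest UMIs, the lowest, 0.23. The cells come from the same library, and the summed member UMIs at 10000 per cell had a correlation of 0.16 with the cell's UMIs before thinning. These correlations are given as descriptions over cells that share 1 suspension.

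**Figure D4:**
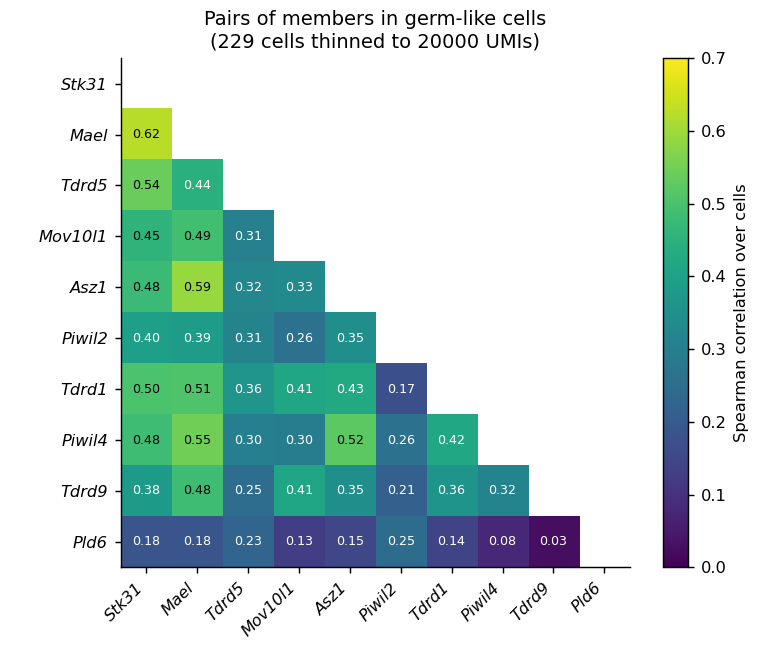
Spearman correlation of UMIs for each pair of members over 229 germ-like cells thinned to 20000 UMIs, members in order of germ-like level. The values run from 0.03 to 0.62, with the *Pld6* row lowest.

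The spread of a member over cells was also wider than counting error gives. For *Mael* at 10000 UMIs, the variance over the 238 cells was 2.65 times the mean, for *Stk31* 1.96 times and for *Tdrd5* 1.54 times, where Poisson counting gives a ratio near 1. *Mael* was missing from 37 of the 238 thinned cells, although its mean of 3.40 UMIs per cell would leave few cells without it. By this ratio *Piwil2* was nearest to counting error, at 1.21 times. The ratio depends on the mean UMIs per cell, 0.790 for *Piwil2* and 6.36 for *Stk31*, so it does not order members by relative spread. It was not taken over all genes. The summed members ranged from 5 to 79 UMIs per cell at 20000 UMIs, with quartiles of 18 and 45.

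Among 4172 genes found in at least 25% of the thinned germ-like cells, the gene most like the summed members was *Gtsf1*, itself a pathway gene that acts beside PIWI proteins. Its correlation was 0.74 at 10000 UMIs and 0.80 at 20000, and with the 8 members other than *Stk31* and *Mael* it was 0.68 and 0.74. The next 4 were *Rpl22l1* at 0.66, a paralogue of a ribosomal protein gene, *Rrad* at 0.64, *Taf7* at 0.63, a general transcription factor gene, and *Nxf2* at 0.61, an mRNA export gene on the X chromosome. *Tex15* stood sixth with 0.60. At the other end were *Npm1* at -0.73, which encodes the nucleolar protein nucleophosmin, *Anp32b* at -0.70, *Ptma* at -0.70, *Dppa5a* at -0.69, a gene of pluripotent and early germ cells, and the proteasome gene *Psma3* at -0.69. The median over all genes compared was 0.01. Other pathway genes were spread between these ends: *Morc1* was at 0.49, *Fkbp6* at 0.46 and *Ddx4* at 0.30, while *Prmt5* was at -0.07 and *Tex19.1* at -0.10. Of the genes of GC stage, *Sycp3* was at 0.44, *Nanos3* at 0.26 and *Nanos2* at 0.07, *Sox2* was at -0.28 and the division genes *Top2a* and *Ccnb1* at -0.31 and -0.28.

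A finer clustering, at a resolution of 1.2 and again without the pathway genes, divided the same 247 germ-like cells into 147 cells called group A here and 100 cells called group B. Each of the other clustering settings tried left the germ-like cells in 1 cluster, so the division rests on this resolution. Group A was led by *Dppa5a*, *Dazl* and *Epcam*, and group B by *Gtsf1*, *Mael*, *Nxf2* and *Rrad*. Their median depths were 34145 and 39643 UMIs per cell. All 10 members were higher in group B than in group A, where 53.9% of 10516 genes were, and their ratios ran from 1.63 to 4.52 with a median of 2.25, against a median of 1.04 over all genes. By the 4-fold rule 2 members were called, *Piwil4* and *Tdrd9*, and 1.45% of all genes. The groups were made from genes that vary with the members, and the comparison was added after their values had been seen, so these ratios are a description and not a test.

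**Figure D5:**
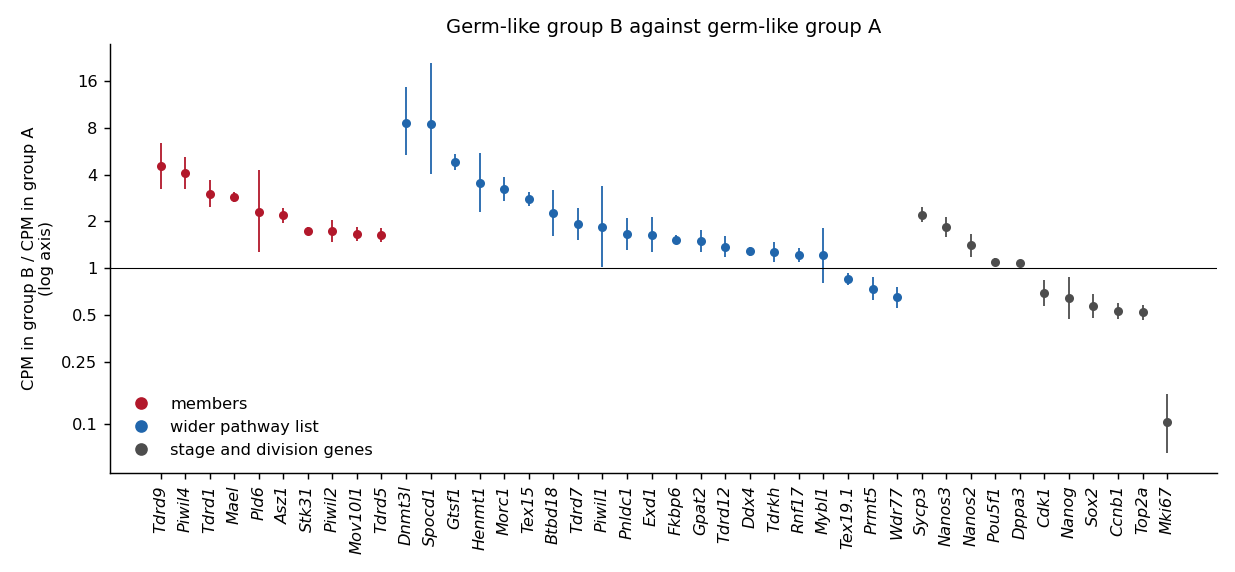
Ratio of the level in germ-like group B (100 cells) to that in group A (147 cells), on a log axis with exact 95% counting intervals, for the 10 members, the wider pathway list without *Tdrd6* and *Dnmt3c*, and 11 genes of stage and division. All 10 members lie above 1, from 1.63 to 4.52, and *Mki67* lies at 0.103.

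*Piwil4* and *Tdrd9*, whose proteins are found together, had the highest ratios among the members. *Tdrd9* was at 9.30 CPM in group A (6.81 to 12.4) and 42.0 CPM in group B (35.8 to 49.0), a ratio of 4.52 (3.24 to 6.42). *Piwil4* was at 19.0 CPM (15.4 to 23.2) in 35.4% of group A cells and 77.9 CPM (69.3 to 87.2) in 87.0% of group B cells, a ratio of 4.10 (3.24 to 5.22). *Tdrd1*, the PIWIL2 scaffold, was at 29.1 and 87.7 CPM, a ratio of 3.01 (2.47 to 3.69), and *Mael* at 186 and 536 CPM, a ratio of 2.88 (2.66 to 3.11). For *Piwil2* itself the levels were 54.2 and 93.4 CPM and the ratio was 1.73 (1.47 to 2.03). The counting interval of *Piwil2* thus lay below those of *Piwil4* and *Tdrd9*, whereas the intervals of *Tdrd1* and *Pld6* overlapped them. The remaining ratios were 2.30 (1.27 to 4.26) for *Pld6*, 2.19 (1.96 to 2.45) for *Asz1*, 1.75 (1.65 to 1.84) for *Stk31*, 1.65 (1.49 to 1.84) for *Mov10l1* and 1.63 (1.479 to 1.805) for *Tdrd5*.

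In the wider list, 19 of 22 genes were higher in group B, where 53.9% of the 10516 genes with 20 or more UMIs were. The 19 include *Tdrd6*, which had only 1 UMI in group A and 2 in group B, below that minimum. They also include *Mybl1*, whose ratio of 1.21 (0.802 to 1.82) was not separated from 1 by counting error. *Dnmt3l*, the cofactor of de novo DNA methylation, had 20 UMIs in group A and 134 in group B, a ratio of 8.61 (5.35 to 14.5), and *Spocd1*, which links PIWIL4 to methylation, had 8 and 53, a ratio of 8.50 (4.02 to 20.7). *Gtsf1* had a ratio of 4.81 (4.26 to 5.45), *Henmt1*, which methylates piRNA ends, 3.51 (2.29 to 5.53), *Morc1* 3.23 (2.71 to 3.87) and *Tex15* 2.79 (2.53 to 3.08). *Ddx4* had 1750 UMIs in each group, a ratio of 1.28 (1.201 to 1.373). The 3 genes lower in group B were *Tex19.1* at 0.855 (0.784 to 0.932), *Prmt5* at 0.740 (0.624 to 0.876) and *Wdr77* at 0.652 (0.555 to 0.763). The division marker *Mki67* was lower in group B, with 300 UMIs in group A and 24 in group B, a ratio of 0.103 (0.0648 to 0.156). *Top2a* was at 0.520 (0.466 to 0.579), *Ccnb1* at 0.534 (0.474 to 0.600) and the pluripotency gene *Sox2* at 0.572 (0.475 to 0.687), while *Pou5f1* was at 1.10 (1.03 to 1.16) and *Dppa3* at 1.08 (1.05 to 1.11). Other genes of stage and GC markers went both ways. Higher in group B were *Sycp3* at 2.21 (1.97 to 2.48), *Taf7l* at 2.21, *Nanos3* at 1.84, *Dnd1* at 1.60 and *Nanos2* at 1.40. Lower were *Dazl* at 0.758, *Cdk1* at 0.693, *Nanog* at 0.647 and *Dppa5a* at 0.536. For *Utf1*, *Stra8*, *Rec8*, *Rhox6* and *Rhox9* the interval held 1.

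Germ-like cells were also divided by *Piwil4* alone, a split chosen after the values had been seen. At 20000 UMIs per cell, 97 germ-like cells held a *Piwil4* UMI and 132 did not. *Mael* had a mean of 9.44 UMIs per cell with *Piwil4* and 4.22 without, *Asz1* 4.67 and 1.99, *Tdrd9* 0.742 and 0.235, and *Piwil2* 1.71 and 1.11. *Dnmt3l* was found in 38.1% of cells with *Piwil4* and 6.82% of cells without, and *Mki67* in 12.4% and 40.9%. *Nanos2*, an RNA-binding factor of the male germ line fate, was found in 67.0% and 59.8%, and *Pou5f1* in 100% of both. Of the other division genes, *Top2a* was found in 82.5% of cells with *Piwil4* and 84.1% without, and *Ccnb1* in 86.6% and 76.5%. Their mean UMIs per cell were lower with *Piwil4*, 2.81 against 4.43 for *Top2a* and 2.44 against 3.58 for *Ccnb1*. At equal depth, the cells with *Piwil4* were richer in the other members and in *Dnmt3l* and poorer in *Mki67*. For the members this restates the correlations of *Piwil4* shown above. All genes were not compared over this split, so how unusual these differences are cannot be told. The share of cells with *Top2a* or *Ccnb1* did not fall in the way that of *Mki67* did.

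Cells were also called into phases of the cell cycle from their S and G2/M genes, from which no cycling is read here. At 10000 UMIs, *Mael* had a mean of 1.41 UMIs in the 32 cells called S, 3.44 in the 32 called G1 and 3.75 in the 174 called G2/M. *Piwil4* had a mean of 0.0625 UMIs in the S cells, 0.219 in the G1 cells and 0.431 in the G2/M cells. These means rest on 2, 7 and 75 UMIs. *Stk31* had a mean of 4.50, 6.84 and 6.61. The same means were not taken over all genes. Cells called S were thus lowest for each of these members, and their median depth before thinning, 34026 UMIs, lay between the 30818 of G1 and the 38225 of G2/M.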

How the data were processed

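RNA was measured in single cells of 1 control library with a droplet kit that captures 3′ ends (10x Genomics Chromium). The authors deposited UMI counts per gene and barcode, without normalization. The submitters' processing notes name Cell Ranger 3.0.2 and 3.1.0 and the mm10 (GRCm38) genome, the matrix header 3.1.0, and the methods another version.

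Barcodes with fewer than 200 genes were removed, then 204 doublets (4.04%, by the share of artificial doublets among neighbours) and 1026 cells beyond 3 median absolute deviations. The 3819 kept cells were clustered in R 4.3.3 with Seurat 5.3.0 and sctransform 0.4.2 (3000 variable genes, 30 components, resolution 0.8), leaving out the members and the wider list. A cluster was named if the mean log2 ratio of a marker list (5 CPM added) was at least 1 and at least 3 markers were in 25% of its cells, unless its median UMI count was below the median of all kept cells divided by 3 and none of those markers was among its 10 leading genes. The limit of 1 came from an earlier analysis that had set it with the clusters in view. It left 89 cells unnamed and the depth rule 62, 151 in all, which were in no comparison. Counts were summed and thinned in Python 3.11.15 with pandas 2.3.3 and numpy 2.4.6, intervals came from scipy 1.17.1, and neighbours for the doublet scores from scikit-learn 1.9.0.

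Levels are a gene's summed UMIs in a class per 1000000 UMIs. Ratios used a minimum of 20 UMIs over the classes compared and a limit of 3 counts for a sum of 0. All 10 members are named, the wider list is counted, and the 5 highest and 5 lowest genes by Spearman correlation with the summed members are named. Members and lists were chosen with earlier results of these data known. Positions are from GENCODE M21 on GRCm38. The ratio, thinning and correlation steps were tested on simulated data. Other filters, resolutions, normalizations, class assignments and depths were tried. The mutant library was not analysed here.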

Additional observations from a re-analysis of the deposited data

Results flagged for a closer look

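The filters on outlier cells and doublets removed 89 barcodes that held a UMI of at least 5 of the 11 GC markers, and the members were high in these barcodes too, which no comparison of the report uses. The summed member level there was 1501 CPM (1467 to 1536), against 1661 CPM in germ-like cells and 11.8 CPM in somatic cells. Of the 89, 29 had been called doublets. The other 60 had a median of 62853 UMIs and a summed member level of 1652 CPM (1611 to 1693), and 50 of them were deeper than every kept cell. In the 60, *Stk31* was at 589 CPM (564 to 614), *Mael* at 366 CPM (346 to 386), *Piwil2* at 72.1 CPM (63.8 to 81.3), *Piwil4* at 38.9 CPM (32.8 to 45.7) and *Pld6* at 6.97 CPM (4.55 to 10.2). The intervals of these 5 members overlapped those of the germ-like cells kept. Most of the 60 barcodes not called doublets were thus deeper than any germ-like cell of the report.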

How the results depend on the processing

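The count of 9 members at least 4-fold higher in germ-like cells became 10, with *Pld6* passing, under an outlier limit of 5 deviations, without an outlier filter and when scaled without mitochondrial and ribosomal protein genes. The shares of all genes called were then 8.44%, 8.89% and 8.59%. The count became 10 also without SC-like cells and without somatic cells holding a GC marker UMI, both chosen after seeing the data. Germ-like cells numbered from 232, with doublets removed at 2 times the rate, to 306, with an outlier limit of 5 deviations. With no doublets removed the summed member level in germ-like cells was 1604 CPM. The summed level in somatic cells was 14.8 CPM with each cell named by itself, and, under the same added settings, 7.81 CPM without SC-like cells and 7.83 CPM without cells holding a GC marker UMI. The median number of members per germ-like cell was 4 at 5000 UMIs, 7 at 20000 and 8 without thinning. Of 90 values of single members in germ-like cells, 89 stayed within counting error, the other being *Stk31* at 600 CPM with no doublets removed. Depth limits *Pld6*, with 53 germ-like UMIs, and single somatic classes of under 50 cells.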
